A study of Homo sapiens with 4 samples.

Results

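The 7 epidermal growth factor (EGF) family ligands AREG, EREG, HBEGF, TGFA, EPGN, BTC and EGF and the 3 receptors EGFR, ERBB2 and ERBB3 were described in human PC3 cells. These 10 genes were chosen by symbol as a family, out of 43622 genes in the deposited table, and all 10 passed the filter of a mean of at least 0.1 TPM (a transcript level scaled by transcript length and library total) over the 12 libraries. PC3 is an established line of metastatic prostate adenocarcinoma. MLN4924 inhibits the enzyme that activates NEDD8, a ubiquitin-like modifier of cullins, and p14ARF is a tumor suppressor encoded by CDKN2A.

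The study had 4 conditions, with 3 libraries each. Ctrl was PC3, labelled wt, with the vehicle DMSO. MLN was the same line with 1 µM MLN4924. shARF was PC3-shp14ARF with DMSO, and Both was PC3-shp14ARF with 1 µM MLN4924. Treatment lasted 3 days. The p14ARF hairpin had been introduced by stable retroviral infection and drug selection, and no control hairpin is named for Ctrl and MLN, so p14ARF depletion and the infection and selection cannot be told apart. In what follows, depletion names this difference between the lines as a whole. The series text calls the line a knockout and writes the dose in mM, while the sample labels give a hairpin and µM. Nothing says that the 3 libraries of a condition were separate cultures, so the p-values measure the spread between these libraries, which may be technical.

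CDKN2A, the targeted gene, had 177 to 190 TPM in Ctrl and 100 to 133 in MLN, and 58.2 to 60.9 in shARF and 41.2 to 54.0 in Both, and each condition with the hairpin lay below the condition with the same drug treatment and no hairpin. CDKN2A also encodes p16INK4a, so a gene-level value does not separate the transcripts. The epithelial markers KRT8, KRT18, KRT19, EPCAM and CDH1 were all present. Their summed level was 907 to 1004 TPM in Ctrl and 439 to 504 in MLN. It was 1138 to 1280 in shARF and 433 to 450 in Both. KRT19 averaged 562 TPM in Ctrl and 189 in MLN, and KRT18, EPCAM and CDH1 were also lower in MLN on average. KRT8 was not, with 90.6 TPM in Ctrl and 93.1 in MLN. Each of these markers averaged less in Both than in shARF. Of the prostate luminal markers, KLK3 and FOLH1 were listed at 0 in all 12 libraries. The 4 leukocyte markers summed to at most 1.07 TPM. Of the endothelial markers, VWF reached at most 0.0301 and CDH5 at most 0.327 TPM, while PECAM1 averaged 11.7 TPM in Ctrl and 0.579 in MLN, and 1.91 in shARF and 0.173 in Both. Of the fibroblast markers, DCN reached at most 0.126 TPM, and the collagens differed in pattern. COL1A1 averaged 7.27 TPM in Ctrl and 18.2 in MLN, and 4.04 in shARF and 6.08 in Both, while COL1A2 averaged 6.73 and 1.47, and 54.5 and 4.26 TPM in the same order. In sum, the endothelial list ranged from 0.16 to 12.6 TPM and the fibroblast list from 9.95 to 63.8 TPM over the 12 libraries. The part of these markers in the results was not tested.

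EGF-family ligands are made as membrane-anchored precursors and are released by metalloprotease sheddases, after which they bind EGFR on the same or on neighbouring cells. Bound receptors dimerise, and the dimers signal through RAS and the MAPK kinases as well as through PI3K. ERBB2 has no known ligand and is the preferred dimer partner, while ERBB3 has a weak kinase and binds neuregulins.

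EPGN, EREG, AREG and BTC lie together on chromosome 4, and EGF lies on the same chromosome outside this group. In GENCODE 44 on GRCh38, AREG spans chr4:74445136-74455005 on the plus strand, EREG chr4:74365145-74388749 on the plus strand, EPGN chr4:74308470-74316789 on the plus strand and BTC chr4:74744759-74794523 on the minus strand. EGF spans chr4:109912883-110013766 on the plus strand, HBEGF chr5:140332843-140346603 on the minus strand and TGFA chr2:70447284-70554193 on the minus strand. The receptors EGFR at chr7:55019017-55211628, ERBB2 at chr17:39687914-39730426 and ERBB3 at chr12:56076799-56103505 are all on the plus strand.

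The 250 bases before the start of transcription are shown for 5 ligands, because AREG, EPGN, EGF and HBEGF had the widest ranges over the conditions among the 10 genes and BTC was the one of the 7 ligands with the greatest fall in MLN vs Ctrl. They are from RefSeq on GRCh38, printed 5′ to 3′ on the strand of the gene. The windows are chr4:74444886-74445135 for AREG, chr4:74308220-74308469 for EPGN, chr4:109912633-109912882 for EGF, chr5:140346604-140346853 for HBEGF and chr4:74794524-74794773 for BTC. Capitals mark matches, on either strand, to an AP-1 motif (TGANTCA), a cAMP response element (CRE, TGACGTCA) or an NF-kB motif (GGGA and CC with any 4 bases between them).
AREG: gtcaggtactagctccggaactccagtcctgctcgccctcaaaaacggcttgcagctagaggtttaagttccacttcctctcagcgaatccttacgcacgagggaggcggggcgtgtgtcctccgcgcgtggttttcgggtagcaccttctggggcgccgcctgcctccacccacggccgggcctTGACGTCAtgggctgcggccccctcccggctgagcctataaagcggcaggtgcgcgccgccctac
EPGN: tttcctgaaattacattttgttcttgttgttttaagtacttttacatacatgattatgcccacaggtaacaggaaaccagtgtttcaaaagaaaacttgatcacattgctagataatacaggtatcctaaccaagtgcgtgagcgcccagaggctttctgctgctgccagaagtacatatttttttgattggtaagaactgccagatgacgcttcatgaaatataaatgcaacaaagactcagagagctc
EGF: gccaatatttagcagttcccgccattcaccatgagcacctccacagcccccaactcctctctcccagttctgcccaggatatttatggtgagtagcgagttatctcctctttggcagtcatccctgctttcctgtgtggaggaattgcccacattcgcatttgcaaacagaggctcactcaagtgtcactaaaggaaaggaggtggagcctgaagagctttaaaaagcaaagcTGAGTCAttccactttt
HBEGF: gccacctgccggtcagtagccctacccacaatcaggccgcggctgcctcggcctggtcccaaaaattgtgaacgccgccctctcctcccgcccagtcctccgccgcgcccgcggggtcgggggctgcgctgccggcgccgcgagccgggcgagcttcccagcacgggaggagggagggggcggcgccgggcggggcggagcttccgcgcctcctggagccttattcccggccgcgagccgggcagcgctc
BTC: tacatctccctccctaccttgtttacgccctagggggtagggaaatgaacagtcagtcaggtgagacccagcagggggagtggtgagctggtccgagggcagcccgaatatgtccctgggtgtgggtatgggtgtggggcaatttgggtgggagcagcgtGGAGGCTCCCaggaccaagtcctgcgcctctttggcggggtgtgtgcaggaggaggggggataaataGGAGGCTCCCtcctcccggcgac

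AREG held a CRE from -65 to -58, EGF an AP-1 motif from -17 to -11 and BTC a pair of NF-kB matches, from -90 to -81 and from -23 to -14, counted from the RefSeq start of the gene. HBEGF and EPGN held none of these motifs, and neither did EREG, TGFA or EGFR. ERBB2 held an AP-1 match from -222 to -216. Over all 27305 promoter windows of 250 bases, 6.6% held the AP-1 motif, 1.77% the CRE and 22.1% the NF-kB motif. The EPGN window had 38% G and C and the HBEGF window 76.4%, with a median of 58% over all windows. A match is a description of the letters and no evidence of binding, and ERBB3 was not matched in the promoter table.

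MLN4924 raised 5 of the 7 ligands in both lines. AREG, EREG, HBEGF, EPGN and EGF were higher in MLN than in Ctrl and higher in Both than in shARF at an adjusted p below 0.05 (limma on log2(TPM + 0.1), Benjamini-Hochberg over 19932 genes). In all, 6 members were higher and 4 lower in MLN vs Ctrl, where 61.6% of all genes tested were called, 32.2% higher and 29.4% lower. In Both vs shARF 6 members were higher and 1 lower, against 61.0% of all genes called, 28.3% higher and 32.8% lower. Over all genes, 22.0% were higher in both comparisons. The median log2 fold change of the 7 ligands was 2.12 in MLN vs Ctrl and 2.43 in Both vs shARF, beside 0.05 and -0.04 over all genes tested. In bulk samples, fewer cells of a type and less RNA per cell cannot be told apart.

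**Figure D1:**
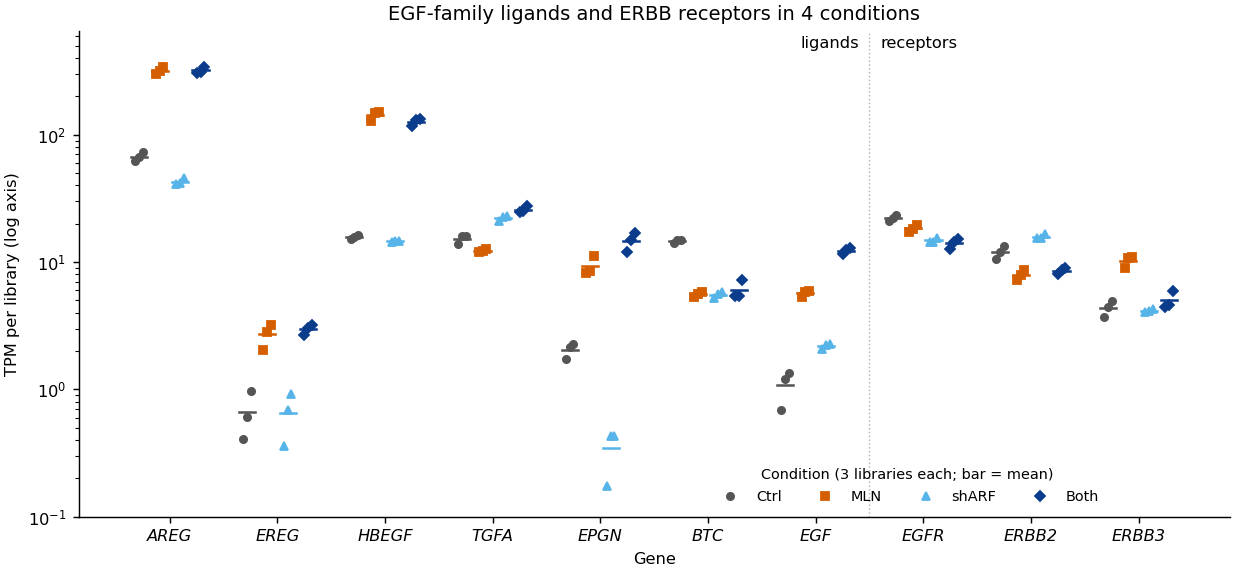
TPM (log axis) of the 7 ligands and 3 receptors in each of the 12 libraries, by gene, with the mean of each condition as a bar. AREG, HBEGF, EREG, EPGN and EGF are higher in every MLN4924 library than in any library without the drug of the same line, and EPGN has the widest spread, from 0.346 TPM in shARF to 14.6 TPM in Both on average.

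AREG (amphiregulin) was the most abundant member in all 4 conditions. Its level was 61.7, 66.6 and 72.7 TPM in the Ctrl libraries and 338, 301 and 314 in MLN, and 41.5, 45.4 and 41.2 in shARF and 312, 342 and 305 in Both. The MLN and Both libraries overlapped each other and lay far above the rest, and the shARF libraries all lay below those of Ctrl. MLN4924 raised AREG by a log2 fold change of 2.25 (SE 0.077, adjusted p = 7.78e-06) in PC3 and of 2.90 (SE 0.062, adjusted p = 1.67e-06) in PC3-shp14ARF. Depletion without drug lowered it (log2 fold change -0.65, SE 0.074, adjusted p = 0.00208). The response was larger in the depleted line by 0.66 on the log2 scale (SE 0.10, adjusted p = 0.000679), whereas the levels under the drug differed by 0.0093 (95% confidence interval -0.17 to 0.19, adjusted p = 0.943).

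HBEGF (heparin-binding EGF-like growth factor) was the second most abundant member under MLN4924. It had 15.7, 15.1 and 16.3 TPM in Ctrl and 129, 150 and 150 in MLN, and 14.3, 14.6 and 14.7 in shARF and 133, 130 and 116 in Both. The drug moved HBEGF further than AREG, EREG, TGFA, EPGN, BTC or EGF in PC3. The change was 9.1-fold on the mean TPM in PC3 and 8.7-fold in PC3-shp14ARF. The log2 fold changes were 3.17 (SE 0.073, adjusted p = 2.65e-06) and 3.11 (SE 0.059, adjusted p = 1.29e-06). Their difference was -0.064 (95% confidence interval -0.28 to 0.15, adjusted p = 0.681), and its sign turned to 0.035 under median-of-ratios scaling. The shARF libraries lay below the Ctrl libraries by 0.11 on the log2 scale without passing the test (adjusted p = 0.0777).

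EPGN (epigen) had the widest range of the 10 genes. The Ctrl libraries had 2.15, 1.73 and 2.26 TPM, the MLN libraries 11.1, 8.54 and 8.15, the shARF libraries 0.434, 0.428 and 0.175, and the Both libraries 14.9, 17.0 and 12.1. No condition overlapped another. Depletion lowered EPGN by a log2 fold change of -2.32 (SE 0.31, adjusted p = 0.00355), and MLN4924 raised it by 2.12 (SE 0.17, adjusted p = 0.000111) in PC3 and by 5.10 (SE 0.30, adjusted p = 3.9e-05) in PC3-shp14ARF. The response was larger in the depleted line by 2.98 (SE 0.35, adjusted p = 7.54e-05), the largest such difference among the 10 genes. The shARF values lie near the 0.1 added to the TPM, so these sizes depend on it. The rise in PC3-shp14ARF was 3.53 with 1 added and 5.46 with 0.01. Over all alternatives the difference between the lines ranged from 1.79 to 3.29 and kept its call. EPGN was also higher in Both than in MLN (log2 fold change 0.65, SE 0.17, adjusted p = 0.0328), a call that was lost without MLN 2 (adjusted p = 0.111), MLN 5 (0.102), Both 2 (0.103) or Both 3 (0.0949). The same call was lost with no filter on low values (0.0719), without the trend in limma (0.0502) and with 12 libraries in one fit (0.0522).

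EGF, the ligand that names the family, rose with the drug and with depletion. It had 1.20, 0.684 and 1.34 TPM in Ctrl and 5.92, 5.84 and 5.34 in MLN, and 2.24, 2.08 and 2.28 in shARF and 12.5, 12.9 and 11.5 in Both. The 4 conditions formed separate ranges in the order Ctrl, shARF, MLN and Both. MLN4924 raised EGF by log2 fold changes of 2.35 (SE 0.25, adjusted p = 0.000362) in PC3 and 2.43 (SE 0.083, adjusted p = 6.37e-06) in PC3-shp14ARF, which differed by 0.080 (95% confidence interval -0.49 to 0.65, adjusted p = 0.859). EGF was higher in Both than in MLN by 1.10 (SE 0.081, adjusted p = 0.000681). Its rise in shARF vs Ctrl (1.02, SE 0.26, adjusted p = 0.0293) was lost without Ctrl 1 (0.0533), shARF 1 (0.0872), shARF 3 (0.0754) or shARF 5 (0.0874), and with no filter on low values (0.0524).

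EREG (epiregulin) was the lowest or next to lowest member in each condition. The levels were 0.41, 0.968 and 0.611 TPM in Ctrl and 3.23, 2.05 and 2.82 in MLN, and 0.688, 0.924 and 0.361 in shARF and 3.22, 3.06 and 2.68 in Both. The drug separated the libraries in either line, and depletion did not separate them with or without drug. MLN4924 raised EREG by 1.92 (SE 0.32, adjusted p = 0.00269) in PC3 and by 2.10 (SE 0.31, adjusted p = 0.00168) in PC3-shp14ARF on the log2 scale. The difference between these responses had a wide interval, from -0.81 to 1.17 (adjusted p = 0.811).

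TGFA (transforming growth factor alpha) moved little with the drug and more with depletion. It had 16, 14 and 15.9 TPM in Ctrl and 12.2, 12.7 and 12 in MLN, and 21, 22.6 and 23 in shARF and 25.1, 27.6 and 24.6 in Both. All PC3-shp14ARF libraries were above all PC3 libraries. TGFA fell with MLN4924 in PC3 (log2 fold change -0.31, SE 0.073, adjusted p = 0.0111) and rose in PC3-shp14ARF (0.21, SE 0.064, adjusted p = 0.0288), although the latter call was lost without shARF 1 (0.0912), shARF 3 (0.0604), Both 2 (0.0562) or Both 3 (0.0560), and without the trend (0.0532). The difference between the responses was 0.52 (SE 0.10, adjusted p = 0.00273). Depletion raised TGFA by 0.54 (SE 0.069, adjusted p = 0.00301) without drug and by 1.06 (SE 0.066, adjusted p = 0.000508) under it.

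BTC (betacellulin) fell further than the other 6 ligands of the 7 in MLN vs Ctrl. The Ctrl libraries had 14.8, 14.9 and 14.2 TPM, while the MLN libraries had 5.87, 5.29 and 5.62, the shARF libraries 5.20, 5.79 and 5.64, and the Both libraries 5.42, 7.28 and 5.45. Ctrl stood above the other 3 conditions, which overlapped one another. MLN4924 lowered BTC by a log2 fold change of -1.38 in PC3 (SE 0.068, adjusted p = 2.19e-05) and depletion by -1.39 (SE 0.057, adjusted p = 0.000109), and these comparisons share the Ctrl libraries. In PC3-shp14ARF the drug gave 0.11 (95% confidence interval -0.22 to 0.45, adjusted p = 0.507). The response differed between the lines by 1.49 (SE 0.16, adjusted p = 3.52e-05).

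Summed over the 7 ligands, the level was 116 ± 6.09 TPM in Ctrl (SD, n = 3) and 496 ± 10.3 in MLN, and 88.2 ± 3.36 in shARF and 508 ± 31.0 in Both. The 3 receptors summed to 38.6 ± 3.08, 36.6 ± 2.83, 34.8 ± 0.547 and 27.6 ± 1.43 TPM in the same order. The ratio of the ligand sum to the receptor sum was 3.03 ± 0.298 in Ctrl and 13.6 ± 1.36 in MLN, and 2.54 ± 0.138 in shARF and 18.4 ± 0.169 in Both, and no library of one line with the drug overlapped a library of that line without it. AREG made up 57.5%, 64.0%, 48.4% and 63.0% of the ligand sum in Ctrl, MLN, shARF and Both, and HBEGF 13.5%, 28.8%, 16.5% and 24.9%. TGFA made up 13.1% and 25.2% without drug in PC3 and PC3-shp14ARF, and 2.48% and 5.07% under it. The share of BTC was 12.6% in Ctrl and 6.28% in shARF, and 1.13% in MLN and 1.19% in Both. These sums count transcripts and not secreted protein. The receptor sum includes ERBB2 and ERBB3, and the ligand sum leaves out the neuregulins, so the ratio does not measure ligand per receptor that binds it.

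**Figure D2:**
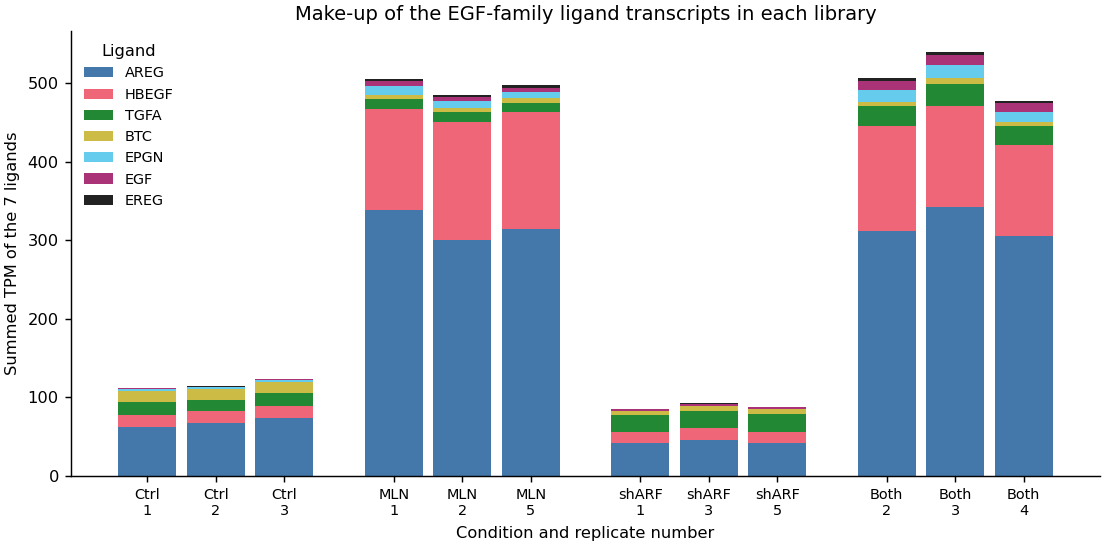
Summed TPM of the 7 ligands in each of the 12 libraries, stacked by ligand. The 6 MLN4924 libraries reach 478 to 540 TPM and the 6 libraries without the drug 85.4 to 123 TPM, with AREG and HBEGF as the largest segments under the drug.

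The 3 receptors moved in both directions. Their median log2 fold change was -0.28 in MLN vs Ctrl and -0.07 in Both vs shARF. EGFR, the receptor of all 7 ligands, had 23.4, 21.1 and 22.3 TPM in Ctrl and 17.1, 19.7 and 18.3 in MLN, and 15.5, 14.4 and 14.4 in shARF and 14.4, 15.1 and 12.7 in Both. It was highest in Ctrl and lay below both PC3 conditions in both PC3-shp14ARF conditions, whose libraries overlapped. Depletion lowered EGFR without drug by a log2 fold change of -0.59 (SE 0.054, adjusted p = 0.00104). MLN4924 lowered it in PC3 (-0.28, SE 0.073, adjusted p = 0.0164), but without Ctrl 1 (0.0523) or Ctrl 3 (0.0520) that call was lost. In PC3-shp14ARF the drug gave -0.07 (95% confidence interval -0.26 to 0.12, adjusted p = 0.443), with the sign turned to 0.022 under median-of-ratios scaling. The lower level in Both than in MLN (-0.38, SE 0.090, adjusted p = 0.0231) was lost without MLN 2 (0.0798), MLN 5 (0.0682), Both 2 (0.0664) or Both 4 (0.0504).

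ERBB2 fell with MLN4924 in both lines. It had 13.3, 10.7 and 11.9 TPM in Ctrl and 7.25, 7.92 and 8.74 in MLN, and 15.4, 15.6 and 16.5 in shARF and 8.62, 8.11 and 9 in Both. The libraries with and without drug did not overlap in either line, and MLN and Both overlapped. The log2 fold changes were -0.58 (SE 0.11, adjusted p = 0.00499) in PC3 and -0.88 (SE 0.062, adjusted p = 7.55e-05) in PC3-shp14ARF. Their difference was -0.30 (95% confidence interval -0.59 to -0.0076, adjusted p = 0.118) and passed the threshold without Ctrl 1 (-0.38, adjusted p = 0.0487). Depletion raised ERBB2 without drug by 0.41 (SE 0.089, adjusted p = 0.0179), a call lost without Ctrl 3 (0.0593), shARF 1 (0.0524), shARF 3 (0.0544) or shARF 5 (0.0628). ERBB2 overlaps MIEN1 and PGAP3 on the opposite strand, and since the strand used in counting is not stated, reads of these genes and of ERBB2 could be mixed where they overlap. MIEN1 had 42.4 TPM in Ctrl and 48.8 in MLN, and 59.3 in shARF and 54.2 in Both, and PGAP3 6.32, 2.29, 5.10 and 3.10.

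ERBB3 rose with MLN4924 in PC3. It overlaps the gene model ENSG00000257411 on the same strand, for which no row was matched in the table. Its level was 4.93, 3.68 and 4.47 TPM in Ctrl and 9.05, 11 and 10.8 in MLN, and 4.25, 4.13 and 4.07 in shARF and 4.64, 5.88 and 4.47 in Both. The 3 MLN libraries stood above all others. MLN4924 raised ERBB3 by a log2 fold change of 1.22 (SE 0.14, adjusted p = 0.000505) in PC3, whereas the value in PC3-shp14ARF was 0.25 (95% confidence interval -0.05 to 0.56, adjusted p = 0.127), which passed the threshold under median-of-ratios scaling (0.34, adjusted p = 0.0372). The responses differed by -0.97 (SE 0.19, adjusted p = 0.00258), and ERBB3 was lower in Both than in MLN by 1.03 on the log2 scale (SE 0.14, adjusted p = 0.00381).

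Without drug, 7 of the 10 members differed between shARF and Ctrl. TGFA, EGF and ERBB2 were higher and AREG, EPGN, BTC and EGFR lower in shARF than in Ctrl, where 41.4% of all genes tested were called, 21.0% higher and 20.4% lower. Under the drug, TGFA, EPGN and EGF were higher and EGFR and ERBB3 lower in Both than in MLN, where 32.4% of all genes were called, 11.8% higher and 20.6% lower. Without MLN 2, MLN 5 or Both 2, this count of 5 members fell to 3. Of the called genes in this comparison, 36.4% were higher on the TPM as deposited and 51.4% under median-of-ratios scaling. EREG differed in neither of these comparisons beyond the spread of the libraries (-0.02, 95% confidence interval -1.08 to 1.04, without drug, and 0.16, -0.31 to 0.63, under it).

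**Figure D3:**
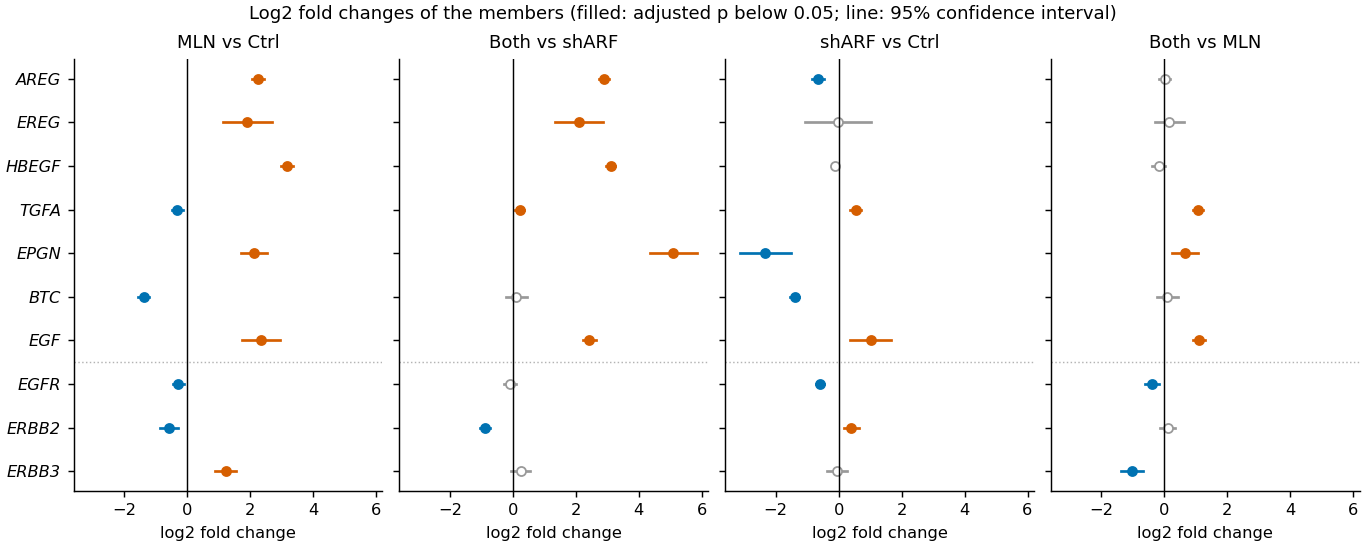
Log2 fold change of each member, on the log2(TPM + 0.1) scale, in 4 comparisons, with 95% confidence intervals and filled points where the adjusted p was below 0.05. The upper ligands AREG, EREG and HBEGF lie near or above 2 in MLN vs Ctrl and in Both vs shARF, and BTC lies at -1.38 in the first and at 0.11 in the second.

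The interaction, the response in PC3-shp14ARF minus that in PC3, was called for 5 members. It was positive for AREG, TGFA, EPGN and BTC and negative for ERBB3. Over all genes tested, 28.3% were called for the interaction, 11.2% higher and 17.1% lower, and 39.5% of the called genes were higher on the TPM as deposited and 53.5% under median-of-ratios scaling. Of the 4 positive members, AREG, EPGN and BTC were lower in shARF than in Ctrl, and TGFA was higher. EGFR had an interaction of 0.20 (SE 0.11, adjusted p = 0.203), which passed the threshold under that scaling (0.30, adjusted p = 0.0267).

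The order of the levels changed with condition. In Ctrl it ran AREG, EGFR, HBEGF, TGFA, BTC, ERBB2, ERBB3, EPGN, EGF and EREG, with HBEGF, TGFA and BTC not separated from their neighbours among these 3, nor EGF from EREG. In MLN it was AREG, HBEGF, EGFR, TGFA, ERBB3, EPGN, ERBB2, EGF, BTC and EREG, and ERBB3, EPGN and ERBB2 overlapped in turn, as did EGF and BTC. In shARF it was AREG, TGFA, ERBB2, EGFR, HBEGF, BTC, ERBB3, EGF, EREG and EPGN, where ERBB2, EGFR and HBEGF overlapped in turn, as did EREG and EPGN. In Both it was AREG, HBEGF, TGFA, EPGN, EGFR, EGF, ERBB2, BTC, ERBB3 and EREG, with EPGN, EGFR and EGF overlapping in turn and also BTC and ERBB3.

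The other ligands and the remaining receptor of the family were NRG1 to NRG4 and ERBB4, of which 4 of 5 were tested and NRG3 was below the filter. NRG1 (neuregulin 1, a ligand of ERBB3 and ERBB4) had 0.238 to 0.262 TPM in Ctrl and 18.7 to 22.1 in MLN, and 0.0556 to 0.0823 in shARF and 33.5 to 35.5 in Both. It rose by log2 fold changes of 5.83 (adjusted p = 2.02e-06) in PC3 and 7.72 (adjusted p = 7.86e-07) in PC3-shp14ARF, with an interaction of 1.89 (adjusted p = 1.43e-05). The shARF values of NRG1 lie below the 0.1 added to the TPM, and the Ctrl values lie near it. The sizes of these changes and of the interaction therefore depend on it. NRG2 (neuregulin 2) went the other way, with 13.7 to 15.6 TPM in Ctrl and 1.27 to 1.5 in MLN, and 11 to 12.8 in shARF and 0.961 to 1.29 in Both, and fell by 3.29 and 3.26 on the log2 scale (adjusted p = 6.18e-06 and 1.35e-05). ERBB4 averaged 0.482 TPM in Ctrl and 0.168 in MLN (log2 fold change -1.10, adjusted p = 0.00994), 0.237 in shARF and 0.217 in Both. The list counted 1 higher and 2 lower in MLN vs Ctrl, 1 and 1 in Both vs shARF, 1 and 2 in shARF vs Ctrl, 1 and 0 in Both vs MLN and 1 and 0 for the interaction. The 2 lower in shARF vs Ctrl became 1 without Ctrl 1, Ctrl 3, shARF 1, shARF 3 or shARF 5, and the 1 lower in Both vs shARF became 2 without Both 3. Of all genes tested, 61.6% were called in MLN vs Ctrl, 61.0% in Both vs shARF and 41.4% in shARF vs Ctrl. In Both vs MLN it was 32.4%, and for the interaction 28.3%. The counts of this and the following lists stand beside these shares, and no list was tested against them.

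The sheddases and their cofactors were ADAM9, ADAM10, ADAM17, RHBDF1 and RHBDF2. ADAM17, the sheddase of AREG, HBEGF, TGFA, EREG and EPGN, had 29.9 to 30.4 TPM in Ctrl and 58.7 to 59.1 in MLN, and 25.0 to 25.9 in shARF and 77.6 to 90.4 in Both. It rose by 0.96 (adjusted p = 9.82e-06) in PC3 and by 1.69 (adjusted p = 8.72e-06) in PC3-shp14ARF, with an interaction of 0.73 (adjusted p = 5e-05). ADAM10, the sheddase of BTC and EGF, fell by 1.21 (adjusted p = 1.33e-05) and by 0.61 on the log2 scale (adjusted p = 0.000501), from 22.4 to 9.65 TPM in PC3 and from 20.7 to 13.5 TPM in PC3-shp14ARF. ADAM9 averaged 166 TPM in Ctrl and 108 in MLN, and 101 in shARF and 98.5 in Both. All 5 were tested, with 2 higher and 2 lower in MLN vs Ctrl, 2 and 1 in Both vs shARF, 0 and 4 in shARF vs Ctrl, 2 and 1 in Both vs MLN and 3 and 0 for the interaction. The 2 higher in MLN vs Ctrl became 1 without Ctrl 2, Ctrl 3, MLN 1 or MLN 5.

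Among 16 signal transducers, 15 were tested, and STAT3 was below the filter with at most 0.0355 TPM. SHC1, an adaptor of the receptors, rose from 212 to 359 TPM in PC3 (log2 fold change 0.76, adjusted p = 0.00149) and from 158 to 278 TPM in PC3-shp14ARF (0.81, adjusted p = 2.55e-05). SOS2, a RAS exchange factor, rose by 0.73 (adjusted p = 0.000118) and 1.04 (adjusted p = 0.000148), and the kinase BRAF fell by 0.70 (adjusted p = 0.000819) and 0.43 on the log2 scale (adjusted p = 0.00159). The list counted 5 higher and 4 lower in MLN vs Ctrl, 5 and 6 in Both vs shARF, 3 and 5 in shARF vs Ctrl, 0 and 3 in Both vs MLN and 2 and 3 for the interaction. The 5 higher in MLN vs Ctrl became 3 without Ctrl 3, MLN 2 or MLN 5, and the 3 higher in shARF vs Ctrl became 1 without Ctrl 2, Ctrl 3, shARF 3 or shARF 5. In Both vs MLN the 3 lower became 1 without MLN 2, MLN 5, Both 2 or Both 3 and under median-of-ratios scaling, and 1 was higher without Both 4 and under that scaling. For the interaction the 2 higher became 4 without Ctrl 2 or Both 4, and 5 under that scaling. Beside the counts of this list, 61.6% of all genes tested were called in MLN vs Ctrl and 61.0% in Both vs shARF.

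Of 9 negative regulators of the receptors, 8 were tested. LRIG1 was below the filter, at most at 0.0442 TPM. RNF41, a ubiquitin ligase of ERBB3, rose from 40.4 to 95.2 TPM in PC3 (log2 fold change 1.23, adjusted p = 1.17e-05) and from 31.8 to 72.4 TPM in PC3-shp14ARF (1.18, adjusted p = 7.29e-06). ERRFI1, a feedback inhibitor of the EGFR kinase, rose from 318 to 451 TPM (0.50, adjusted p = 0.000977) and from 225 to 324 TPM (0.52, adjusted p = 0.000342). SOCS4 rose by 0.73 (adjusted p = 0.000376) and 0.80 (adjusted p = 8.69e-05), and CBL, a ubiquitin ligase of EGFR, by 0.61 (adjusted p = 0.00176) and 1.10 (adjusted p = 0.000302). The list counted 5 higher and 1 lower in MLN vs Ctrl, 5 and 1 in Both vs shARF, 1 and 5 in shARF vs Ctrl, 0 and 4 in Both vs MLN and 1 and 0 for the interaction. The 1 lower in MLN vs Ctrl became 0 without Ctrl 1, Ctrl 3, MLN 1 or MLN 2, and the 1 higher in shARF vs Ctrl became 0 without Ctrl 1, shARF 1, shARF 3 or shARF 5. In Both vs MLN the 4 lower became 2 without MLN 1, MLN 2, Both 2 or Both 4, and became 1 higher and 2 lower under median-of-ratios scaling. That comparison had 1 higher without Both 4. The 1 positive interaction became 0 without Ctrl 1, MLN 1, MLN 2, shARF 1, shARF 3 or Both 3, and became 2 under that scaling.

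Of 16 transcripts that respond to MAPK signalling in many cells, all were tested, and they moved in both directions. EGR1 was at 0 to 0.145 TPM without the drug, at 9.01 to 13.8 TPM in MLN and at 16.9 to 23 TPM in Both. Its log2 fold changes were 5.96 (adjusted p = 5.23e-05) in PC3 and 7.08 (adjusted p = 1.06e-05) in PC3-shp14ARF. EGR1 averaged 0.0816 TPM in Ctrl and 0.0499 in shARF, and passed the filter of 0.1 TPM only through the libraries with the drug. The sizes of its changes depend on the 0.1 added to the TPM. FOS rose by 3.21 (adjusted p = 0.000127) in PC3, to 3.55 to 5.91 TPM, and by 1.68 (adjusted p = 0.00126) in PC3-shp14ARF, to 1.27 to 1.76 TPM, with an interaction of -1.53 (adjusted p = 0.0079). CCND1, the gene of cyclin D1, fell by 2.92 and 2.98 on the log2 scale (adjusted p = 2.78e-06 and 6.68e-07), from 308 to 40.4 TPM and from 317 to 40.0 TPM. The list counted 5 higher and 9 lower in MLN vs Ctrl, 7 and 9 in Both vs shARF, 2 and 8 in shARF vs Ctrl, 3 and 4 in Both vs MLN and 5 and 3 for the interaction. In shARF vs Ctrl the 2 higher became 4 without Ctrl 1 and under median-of-ratios scaling, and the 8 lower became 5 without shARF 3. In Both vs MLN the 4 lower became 2 without MLN 2, MLN 5, Both 2 or Both 4 and under that scaling, which also gave 8 higher for the interaction.

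**Figure D4:**
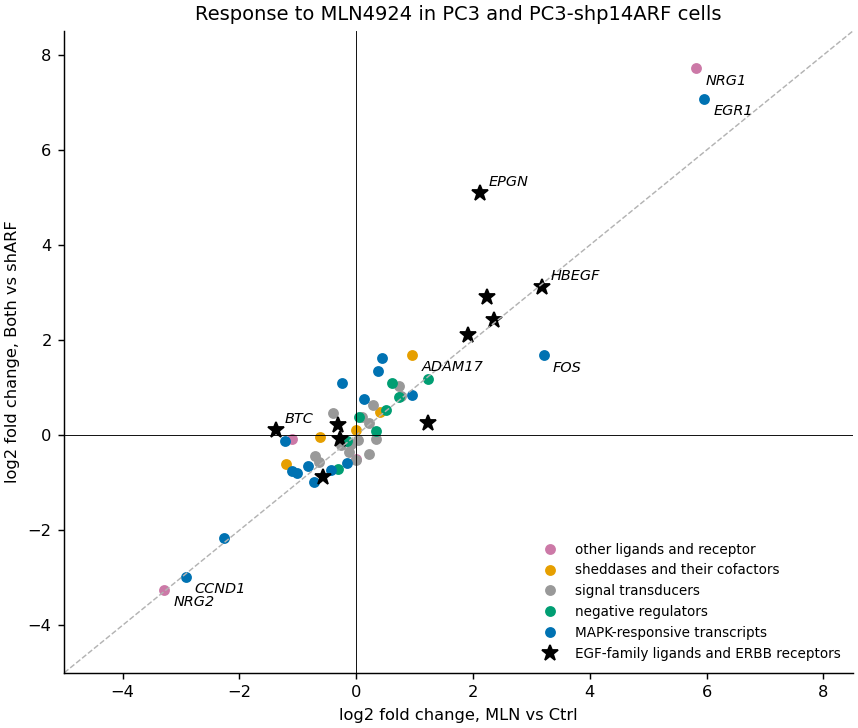
Log2 fold change with MLN4924 in PC3 (x axis) and in PC3-shp14ARF (y axis) for the 10 members (stars) and the tested genes of the 5 pathway lists (dots, colored by list), where the dashed line marks equal responses. NRG1, EGR1 and HBEGF lie far up on both axes, EPGN lies above the line at 2.12 and 5.10, and NRG2 and CCND1 lie far down on both.

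The group of linked ligands spans 486.1 kb of chromosome 4, and 4 other protein-coding genes lie within 300 kb of it. CXCL3, a chemokine, averaged 133 TPM in Ctrl and 451 in MLN, and 0.945 in shARF and 458 in Both, and its neighbour CXCL2 119, 103, 1.54 and 84.8. MTHFD2L, an enzyme of folate metabolism, had 7.36, 20.4, 5.63 and 37.7 TPM in the same order, and PARM1 14.6, 5.02, 3.75 and 2.36. The interaction was positive and called for all 4, at 7.06 for CXCL3 (adjusted p = 6.07e-09), 5.91 for CXCL2 (adjusted p = 1.16e-10), 1.26 for MTHFD2L (adjusted p = 0.000145) and 0.87 for PARM1 (adjusted p = 0.0143), where 28.3% of all genes tested were called and 11.2% were higher. Among the linked ligands it was called for EPGN, AREG and BTC and not for EREG, whose start lies between those of EPGN and AREG.

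For the 3 members with the widest range, the genes of most similar profile were sought among 14662 genes by Pearson's r of log2(TPM + 0.1) over the 12 libraries, a description over libraries that share 4 conditions. For EPGN these were SLCO1B3 (r = 0.994), MOSPD2 (0.992) and LINC01235 (0.991). LINC01235 averaged 5.37 TPM in Ctrl and 37.6 in MLN, and 0.649 in shARF and 43.1 in Both. For EGF they were INO80C (0.990), SNHG1 (0.990) and ACSL5 (0.988), and ACSL5 averaged 0.829, 8.39, 3.03 and 24.7 TPM in the same order. For HBEGF they were CFLAR (0.999), ZFP36L1 (0.999) and MOB3C (0.998), and ZFP36L1 averaged 23.4, 90.1, 22.2 and 83.1 TPM.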

How the data were processed

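Per the labels and the study's methods, RNA of PC3 and PC3-shp14ARF cells was sequenced after 3 days with DMSO or 1 µM MLN4924. The authors trimmed and mapped the reads to hg38 in CLC Genomics Workbench with an Ensembl annotation, and tested read counts themselves with DESeq2. What the authors deposited is a table of TPM, with 43622 genes and 12 libraries that each sum to 1000000. TPM carries no depth, so the reads behind a value are unknown. Strand, read length and layout are not given in the sources used here. The columns were grouped by their names, and their numbers are not described.

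From the TPM, log2(TPM + 0.1) was taken after genes averaging under 0.1 TPM were dropped, which left 19932. This scale understates changes of low genes. Each pairwise comparison was fitted to the 6 libraries of its conditions and the interaction to all 12, with limma 3.58.1 in R 4.3.3 (eBayes with trend), and Benjamini-Hochberg adjustment over all genes tested. Calls needed an adjusted p below 0.05. In simulated libraries, only 102 of 19932 genes were changed by 1 and 98 by 2 on the log2 scale, all in MLN. Of these, 59.8% and 81.6% were recovered in MLN vs Ctrl, with 7 false calls, and 55.9% and 78.6% for the interaction, with 5. In the real libraries 61.6% and 28.3% of genes were called, so these rates do not carry over to the tests here. Replicates of a condition correlated at 0.975 to 0.980 over genes, and no columns were identical.

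The members and the gene lists were chosen with earlier results of these data known. Named were all 10 members, CDKN2A, up to 3 called genes of at least 1 TPM per pathway list by the size of the change in MLN vs Ctrl, ADAM17, ERBB4, ERRFI1 and LRIG1, the 3 most similar profiles of the 3 members of widest range, and the protein-coding genes within 300 kb of the linked ligands. Genes came from GENCODE 44 on GRCh38, another release than the authors' annotation. Promoters came from RefSeq on GRCh38, for 9 of 10 members. As alternatives, the pseudocount was set to 1 or 0.01, the filter was raised to 1 TPM or dropped, the TPM were rescaled by median of ratios, the trend was left out, all libraries were fitted together, a replicate block was added and each library was left out in turn.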

Additional observations from a re-analysis of the deposited data

Results flagged for a closer look

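The response to MLN4924 differed between PC3-shp14ARF and PC3 cells for 5 members by the interaction of the fit over 12 libraries. On the log2 scale, the response of the depleted line minus that of PC3 was 0.66 for AREG, 0.52 for TGFA, 2.98 for EPGN and 1.49 for BTC, and -0.97 for ERBB3. EPGN and AREG rose in both lines and rose further in PC3-shp14ARF, where they started from a lower level. TGFA fell in PC3 and was higher with the drug in PC3-shp14ARF, BTC fell in PC3 alone of the 2 lines at the threshold, and ERBB3 rose in PC3 alone at the threshold. No explanation was tested.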

How the results depend on the processing

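The number of called members ranged from 9 to 10 in MLN vs Ctrl, 5 to 7 in shARF vs Ctrl, 6 to 7 in Both vs shARF, 3 to 5 in Both vs MLN and 5 to 6 for the interaction when each library was left out in turn. The deviations of same-numbered libraries correlated at -0.046 to 0.0072. These few values gave no sign that the numbers pair the samples but cannot exclude it, and the numbers are not described. With the replicate block, the called members fell from 10 to 5 in MLN vs Ctrl and from 7 to 0 in shARF vs Ctrl. In these pairwise fits the contrast rests on the libraries whose number both conditions share. For the interaction the block was added to the fit over all 12 libraries. There the called members fell from 5 to 4, and ERBB3 was lost (adjusted p = 0.0611). In the pairwise fits the block leaves little from which to measure the spread. No paired analysis was possible for Both vs shARF and Both vs MLN because each shares 1 number. Signs turned for values that were not called. EREG in shARF vs Ctrl went from -0.02 to 0.58 with the block and ranged from -0.28 to 0.30 with a library left out, and its interaction from 0.18 to -0.18 and from -0.14 to 0.44. With a library left out, ERBB3 in shARF vs Ctrl ranged from -0.17 to 0.031 and BTC in Both vs shARF from -0.026 to 0.18. In Both vs MLN the ranges were -0.039 to 0.056 for AREG, -0.019 to 0.30 for EREG and -0.039 to 0.17 for BTC, and the interaction of EGF ranged from -0.091 to 0.35. Median-of-ratios scaling turned EGFR in Both vs shARF to 0.022 and the interaction of HBEGF to 0.035. It shifted the median of all genes by at most 0.093. Of the values of single members under the alternatives, 671 kept their direction and side of the threshold, 40 lost their call, 3 gained one and 16 changed sign. TPM leaves the reads behind low values such as those of EREG unknown.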
